A study of Mus musculus with 12 samples.

Results

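Endothelial cells that line capillaries take up fatty acids with a short chain of proteins, and 8 genes of that chain were chosen by name, with counts of these libraries already known: *Lpl*, *Gpihbp1*, *Cd36*, *Fabp3*, *Fabp4*, *Fabp5*, *Mgll* and *Meox2*. Of these 8, 7 are listed in both deposited tables, which hold 17811 and 17521 genes, and *Meox2* is listed in neither. Because the selection used the count columns of WT and AS in both subpopulations, differences of AS over WT and of bright over dim are given for the 7 genes as a description.

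RNA-seq was carried out on sorted cells labelled as glomerular endothelial cells (GEC) from 3 wild type (WT) and 3 Alport syndrome (AS) mice, all C57BL/6 and 4 months old and sex-matched. The AS mice carry a mutated *Col4a5* (labelled Col4a5 -/-, from the strain B6.Cg-Col4α5tm1Yseg/J), the gene of a type IV collagen chain of the glomerular basement membrane. All 6 mice, WT included, carry a Cre driven by the *Tek* promoter and a tdTomato (tdT) reporter; this promoter is active in endothelium and is also known to be active in part of the blood cell lineage. Glomeruli were sieved from the renal cortex, digested and sorted by tdT brightness, and each mouse gave 1 dimtdT and 1 brighttdT library, called dim and bright here, so that 12 libraries form 4 groups of 3 (WT-dim, AS-dim, WT-bright, AS-bright).

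Triglyceride-rich lipoproteins are hydrolysed on the luminal face of capillaries by lipoprotein lipase, which GPIHBP1 carries there and anchors. The released fatty acids enter the endothelial cell in part through CD36, and small cytosolic proteins of the FABP family bind them inside. In the heart, MEOX2 and its partner TCF15 are known as endothelial transcription factors that raise several of these genes.

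Counts on genes were 11440169 to 15074909 per library. Levels are given as CPM, counts per 1000000 counts of a library, scaled over the 12 libraries by edgeR's TMM method. The label GEC was checked against marker genes. All 14 endothelial markers are listed in both tables, and their summed level was 11066 to 19416 CPM in the 6 bright libraries, 762 to 1396 CPM in WT-dim and 234.5 to 327 CPM in AS-dim. The 12 macrophage markers summed to 4653 to 8683 CPM in WT-dim and 9917 to 12930 CPM in AS-dim, so that in every dim library they lay above the endothelial markers. The markers thus go against the label GEC for the dim libraries, which are called only dim libraries from here on. In the bright libraries 10 of these 12 are listed and summed to 248 to 278 CPM in WT and 329 to 420 CPM in AS. The 12 lymphocyte markers reached 712 to 1187 CPM in the dim libraries, and the 5 listed for the bright libraries 2.21 to 6.00 CPM. *Col4a5* had 439 to 877 counts in WT-dim and 17 to 51 in AS-dim, whereas in bright the WT (69 to 158) and AS (43 to 104) libraries overlapped. In such bulk samples fewer cells of a type and less RNA per cell cannot be told apart.

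**Figure D1:**
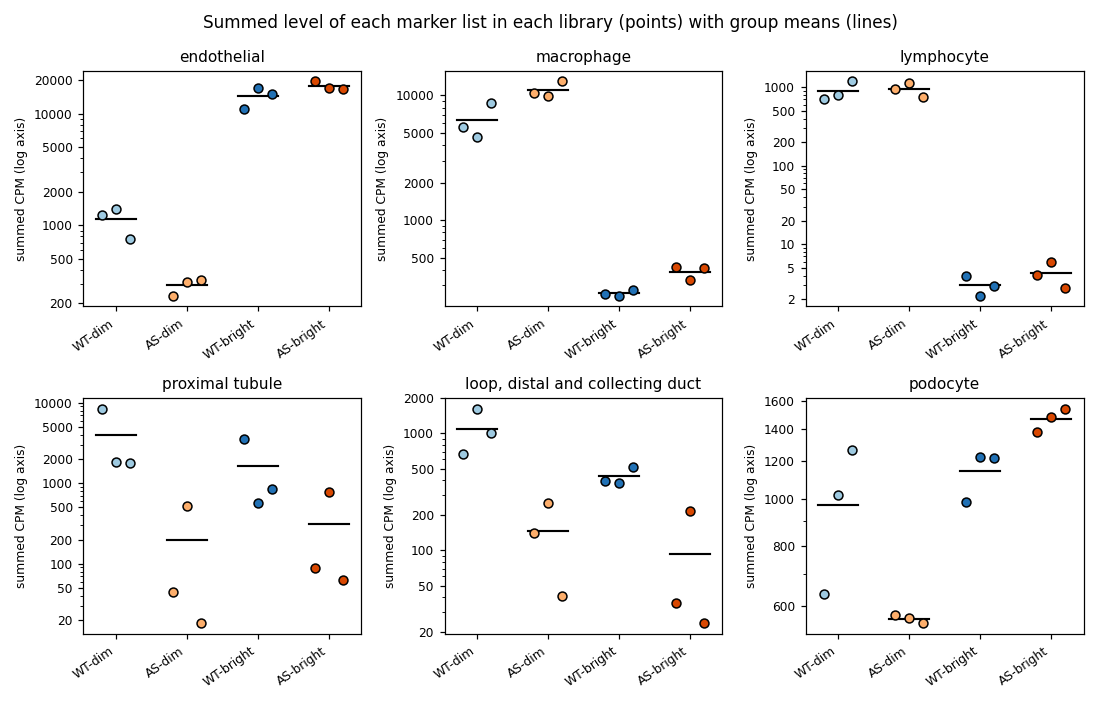
Summed level of 6 marker lists (CPM, log axis) in each of the 12 libraries, by group, with group means as lines. Endothelial markers were highest in the bright libraries and lowest in AS-dim (234.5 to 327 CPM), while macrophage and lymphocyte markers were highest in the dim libraries.

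All 8 genes are annotated as protein-coding on GRCm38 (Gencode M21). *Lpl* is at chr8:68880491-68907448 on the plus strand, *Gpihbp1* at chr15:75596628-75599481 (plus), *Cd36* at chr5:17781690-17888801 (minus) and *Mgll* at chr6:88724412-88828360 (plus). *Fabp4* (chr3:10204088-10208576, minus) and *Fabp5* (chr3:10012548-10016607, plus) are neighbours on chromosome 3. *Fabp3* is at chr4:130308595-130315463 (plus) and *Meox2* at chr12:37108540-37179534 (plus). *Fabp3* overlaps *Gm10570* and *Zcchc17* on the other strand and *Mgll* overlaps 5 noncoding genes, so that, with the counted strand not given in the sources used here, their counts are uncertain to that extent. The processed pseudogenes *Fabp3-ps1* and *Fabp5l2* resemble 2 of the members; over the 6 dim libraries they had 169 and 16 counts in all, and over the 6 bright libraries 56 and 27.

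RefSeq promoter stretches on GRCm38.p6 are shown for *Mgll*, *Fabp3* and *Cd36*, whose levels followed 3 different patterns over the groups. The first 2 end at the last base before the first exon of the gene in Gencode, while that of *Cd36* ends at the start given by RefSeq, which lies inside the longer Gencode span of the gene. A second RefSeq start of *Mgll* lies inside an annotated exon and its stretch is not shown. Each stretch is written 5′ to 3′ on the gene's strand, at chr6:88724162-88724411 (plus), chr4:130308488-130308594 (plus) and chr5:17835897-17836146 (minus).
*Mgll*: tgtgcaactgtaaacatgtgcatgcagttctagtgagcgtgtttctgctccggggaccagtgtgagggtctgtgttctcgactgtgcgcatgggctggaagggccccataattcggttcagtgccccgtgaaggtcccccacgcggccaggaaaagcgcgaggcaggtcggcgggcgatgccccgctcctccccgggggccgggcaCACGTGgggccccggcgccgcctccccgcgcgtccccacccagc
*Fabp3*: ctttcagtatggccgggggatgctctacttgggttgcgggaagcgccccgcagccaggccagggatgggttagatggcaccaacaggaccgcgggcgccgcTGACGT
*Cd36*: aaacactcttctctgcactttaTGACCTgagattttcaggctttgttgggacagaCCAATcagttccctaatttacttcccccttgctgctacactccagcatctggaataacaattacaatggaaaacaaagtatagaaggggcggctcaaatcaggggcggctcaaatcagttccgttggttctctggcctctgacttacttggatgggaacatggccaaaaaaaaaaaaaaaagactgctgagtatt
Capitals mark matches to 5 motifs searched on both strands. AGGTCA is the core bound by nuclear receptors such as the PPARs, TATAAA is the TATA box, CACGTG the E-box, CCAAT the box of that name and TGACGT the core of the cyclic AMP response element. *Mgll* holds CACGTG, *Fabp3* TGACGT, and *Cd36* holds CCAAT and TGACCT, the reverse complement of AGGTCA. Over 32851 windows of 250 bases, AGGTCA is found in 14%, TATAAA in 12.4%, CACGTG in 6.02%, CCAAT in 33.8% and TGACGT in 6.47%. The *Fabp3* stretch is shorter than these windows, at 107 bases. The matches are a description of the letters only.

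*Lpl* encodes lipoprotein lipase, the enzyme that frees fatty acids from circulating triglyceride. It was at 1098, 904.5 and 793 CPM in the 3 WT-dim libraries and at 212, 189 and 145 CPM in AS-dim. In bright, it was at 2017, 3403 and 3123 CPM in WT and at 1734, 1522 and 1569 CPM in AS. In each subpopulation every AS library therefore lay under every WT library, and AS-dim was lowest of the 4 groups. The log2 fold change of AS over WT was -2.39 (standard error 0.22) in dim and -0.89 (standard error 0.24) in bright.

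*Gpihbp1* encodes the endothelial anchor of lipoprotein lipase. It was at 17.8, 4.39 and 4.13 CPM in WT-dim and at 0.919, 1.24 and 9.02 CPM in AS-dim, with 1 high library in each group, so that the groups overlapped. Bright libraries were far higher, at 343, 161 and 179 CPM in WT and at 461, 317 and 412 CPM in AS, and here also the groups overlapped. AS over WT was -1.28 on the log2 scale (standard error 0.91) in dim and 0.71 (standard error 0.31) in bright. The dim value depended on the high library of either group, being -3.05 without AS-dim replicate 3 and -0.24 without WT-dim replicate 1.

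*Cd36* encodes a membrane receptor for long-chain fatty acids that macrophages also carry. It was at 89.9, 72.1 and 67.9 CPM in WT-dim and at 90.7, 60.7 and 74.2 CPM in AS-dim, which overlapped throughout. In bright it was at 35.6, 46.7 and 28.7 CPM in WT and at 17.1, 29.0 and 9.03 CPM in AS, and AS-bright replicate 2 reached into the WT range. AS over WT was -0.06 on the log2 scale (standard error 0.23) in dim, where the sign turned with unscaled library sizes (0.02), and -1.06 (standard error 0.39) in bright. *Cd36* is the only one of the 7 genes with a mean level lower in bright than in dim in both genotypes with no overlap between the subpopulations.

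*Fabp3* encodes the fatty acid binding protein of heart and muscle. It was at 71.9, 36.5 and 23.8 CPM in WT-dim and at 1.41, 12.3 and 0.958 CPM in AS-dim. In bright it was at 32.0, 8.12 and 13.8 CPM in WT and at 0.146, 4.18 and 0.947 CPM in AS, where the lowest library had 2 counts. AS was under WT without overlap in both subpopulations, and replicate 2 was the highest AS library in both. On the log2 scale AS over WT was -3.25 (standard error 0.82) in dim and -3.39 (standard error 0.77) in bright, the widest errors but for *Gpihbp1* in dim.

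*Fabp4* encodes the FABP of adipocytes, which capillary endothelium also expresses. It was at 25.5, 30.3 and 20.4 CPM in WT-dim and at 23.7, 18.1 and 16.04 CPM in AS-dim, which overlapped. In bright it was at 133, 101 and 148 CPM in WT and at 167, 218 and 222 CPM in AS, so that every AS library was above every WT library. The log2 fold change of AS over WT was -0.43 (standard error 0.30) in dim and 0.59 (standard error 0.23) in bright. Of 8 adipocyte markers, 1 is listed for the dim libraries, at 0.263 to 0.843 CPM, and 0 for the bright libraries, *Adipoq* and *Plin1* being listed in neither.

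*Fabp5* encodes the FABP first known from skin. It was at 20.5, 25.9 and 29.6 CPM in WT-dim and at 47.3, 32.2 and 59.2 CPM in AS-dim. In bright it was at 31.7, 27.4 and 38.0 CPM in WT and at 101, 73.9 and 111.5 CPM in AS. *Fabp5* was the one of the 7 genes with every AS library above every WT library in both subpopulations. On the log2 scale this difference was 0.83 (standard error 0.30) in dim and 1.48 (standard error 0.24) in bright.

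*Mgll* encodes monoacylglycerol lipase, which frees the last fatty acid of a glyceride. It was at 35.8, 41.0 and 19.1 CPM in WT-dim and at 6.57, 3.81 and 5.75 CPM in AS-dim. In bright it was at 224, 290 and 198 CPM in WT and at 510, 363 and 361 CPM in AS. AS was thus under WT in dim and above WT in bright, with no overlap in either. In log2 it was -2.60 (standard error 0.41) in dim and 0.73 (standard error 0.23) in bright.

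**Figure D2:**
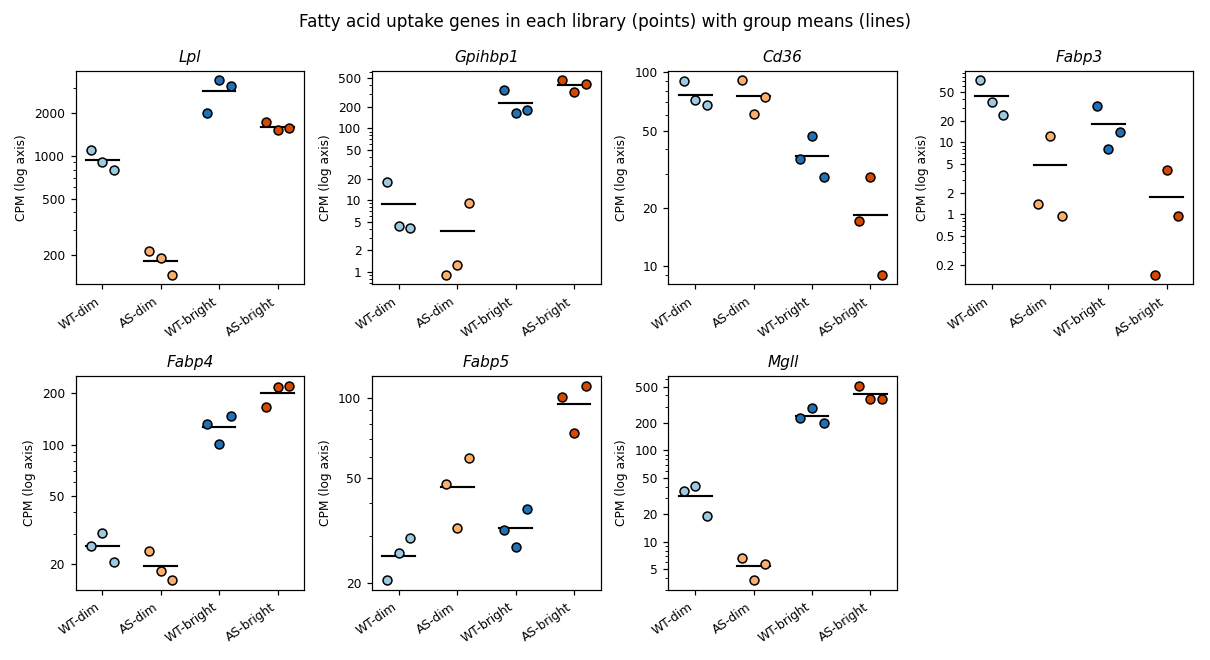
Level (CPM, log axis) of the 7 listed genes in each of the 12 libraries, by group, with group means as lines. *Lpl*, *Gpihbp1*, *Fabp4* and *Mgll* were highest in the bright libraries and *Cd36* in the dim, while *Fabp5* was higher and *Fabp3* lower in AS than in WT in both subpopulations.

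In the fit of AS over WT in dim across all genes, 3 of the 7 genes passed an adjusted p of 0.05, *Lpl*, *Mgll* and *Fabp3*, all 3 lower in AS. Of the 14637 genes tested there, 8.63% passed in either direction and 6.42% were lower. The groups did not overlap for 4 of the 7, where they did not overlap for 31.6% of all genes. The median log2 fold change was -1.28 over the 7 genes and -0.02 over all genes. Without AS-dim replicate 1 or AS-dim replicate 3, 0 of the 7 passed (3 and 4 at an unadjusted p under 0.05), and *Lpl* was at -2.54 and -2.24 and *Mgll* at -2.80 and -2.63. *Fabp3* passed in 6 of 14 alternatives, against 12 of 14 for *Lpl* and for *Mgll*. It did not pass without WT-dim replicate 1 (-2.70) or WT-dim replicate 2 (-3.38), with library sizes alone, without a filter on low counts or in edgeR's version 3 fit, and its value was -5.26 without AS-dim replicate 2. In bright, 1 of the 7 passed, *Fabp5*, which was higher in AS, where 0.452% of 14396 genes passed in either direction and 0.188% were higher. The groups did not overlap for 5 of the 7, and for 24.7% of all genes. The median log2 fold change was 0.59 over the 7 genes and -0.03 over all genes. Without WT-bright replicate 3, AS-bright replicate 1 or AS-bright replicate 3, *Fabp5* stayed between 1.34 and 1.58 and did not pass, and 0 of the 7 did (4 to 5 at an unadjusted p under 0.05). *Fabp5* passed in 9 of 14 alternatives. It also did not pass with the replicate number as a block or in edgeR's version 3 fit (1.48 in both). Without WT-bright replicate 1, *Lpl* (-1.06) and *Gpihbp1* (1.19) passed as well, and without WT-bright replicate 2 (-3.75) or AS-bright replicate 2 (-5.11) *Fabp3* did. *Fabp3* was nearer to no change, and did not pass, without WT-bright replicate 1 (-2.63) or AS-bright replicate 1 (-2.88).

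**Figure D3:**
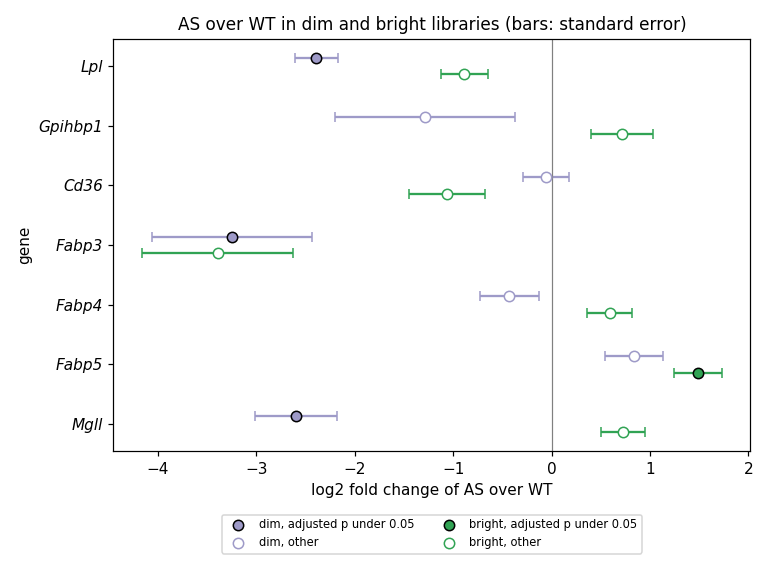
Log2 fold change of AS over WT for the 7 genes in dim and bright libraries, with standard errors as bars; filled points passed an adjusted p of 0.05 in the fit across all genes. *Mgll* lay at -2.60 in dim and 0.73 in bright, and *Fabp3* near -3.3 in both.

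The difference between subpopulations in the effect of AS was fitted over all 12 libraries. *Mgll* had the widest such difference, 3.36 on the log2 scale (standard error 0.43), and that of *Lpl* was 1.53 (standard error 0.32). These 2 of the 7 genes passed, where 3.77% of 15084 genes did. The median of all genes was 0.13 here and -0.03 with unscaled library sizes. The other genes were at 2.05 (*Gpihbp1*, standard error 0.93), 1.06 (*Fabp4*, 0.34), 0.69 (*Fabp5*, 0.38), -0.98 (*Cd36*, 0.49) and -0.10 (*Fabp3*, 1.25), and did not pass. *Lpl* did not pass without AS-dim replicate 3 (1.41) or AS-bright replicate 1 (1.48), and *Gpihbp1* passed without AS-dim replicate 3 (3.82) and was at 1.02 without WT-dim replicate 1.

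The counts compared in bright over dim also entered the selection. These values are therefore a description as well, and the adjusted p are those of the fits across all genes. In WT mice, the lipolysis pair and 2 further genes were higher in bright libraries. So were 13 of 14 endothelial markers, with a median log2 fold change of 3.67, and their part in these values was not tested. The widest difference of the 7 genes was that of *Gpihbp1*, 27.4-fold (4.77 on the log2 scale, standard error 0.61, quasi-likelihood adjusted p = 0.000515). It ran from 4.32 to 5.78 with a replicate left out, the highest value being that without WT-dim replicate 1. *Mgll* was at 2.94 (standard error 0.33, adjusted p = 0.000268), *Fabp4* at 2.38 (standard error 0.29, adjusted p = 0.000402) and *Lpl* at 1.66 (standard error 0.27, adjusted p = 0.00192). *Cd36* was lower in bright by the same test (-1.002, standard error 0.28, adjusted p = 0.0287), and did not pass without WT-dim replicate 1 or 2 or WT-bright replicate 1 or 3, its value then being -1.03 to -0.84. *Fabp5* (0.40, standard error 0.31) and *Fabp3* (-1.21, standard error 0.57) did not pass, with adjusted p of 0.385 and 0.155. With the mouse as a replicate block *Fabp3* passed (-1.29, adjusted p = 0.0309), as it did without WT-bright replicate 1 (-1.96). In all, 4 of the 7 were higher and 1 lower, where 13.8% and 11.5% of 14247 genes were, and 25.3% passed in either direction. Bright and dim did not overlap for 5 of the 7 genes and for 41.8% of all genes.

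In AS mice the same 4 genes were again higher in bright, and *Fabp5* with them. All 14 endothelial markers were higher there too, with a median log2 fold change of 6.28. *Gpihbp1* was at 6.74 (standard error 0.60, adjusted p = 7.12e-06), a 107-fold difference, and *Mgll* at 6.23 (standard error 0.27, adjusted p = 5.90e-08), a 75.3-fold difference. With a replicate left out *Gpihbp1* ran from 6.26 to 8.51, the highest value being that without AS-dim replicate 3. *Fabp4* was at 3.38 (standard error 0.22, adjusted p = 7.92e-07), *Lpl* at 3.13 (standard error 0.20, adjusted p = 6.73e-07) and *Fabp5* at 1.03 (standard error 0.25, adjusted p = 0.00566). *Cd36* was lower in bright (-2.03, standard error 0.36, adjusted p = 0.000918). *Fabp3* had the widest error (-1.39, standard error 1.02, adjusted p = 0.278), passed with the mouse as a replicate block (-1.44, adjusted p = 0.0320) and turned to 0.57 without AS-dim replicate 2. Thus 5 of the 7 were higher and 1 lower, where 28.6% and 26.5% of 14052 genes were and 55.1% passed in either direction. The subpopulations did not overlap for 6 of the 7 genes and for 62.2% of all genes.

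**Figure D4:**
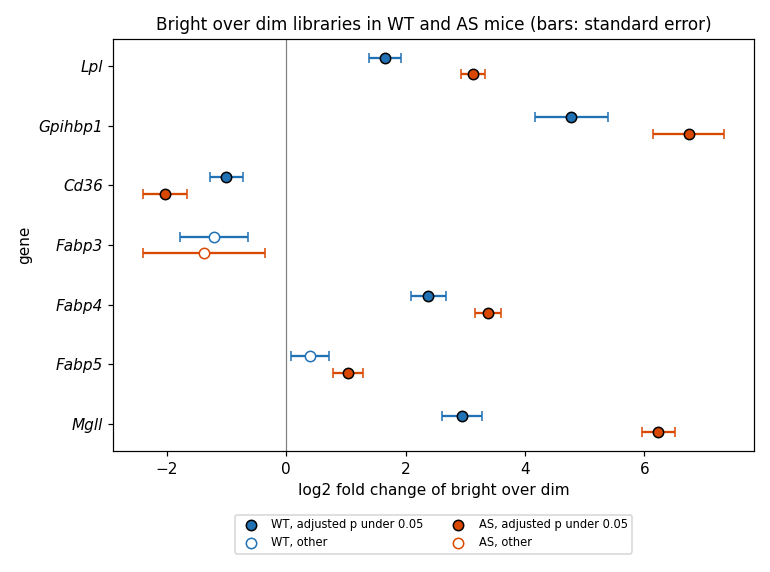
Log2 fold change of bright over dim libraries for the 7 genes in WT and AS mice, with standard errors as bars; filled points passed an adjusted p of 0.05. *Gpihbp1* and *Mgll* had the highest values in both genotypes, and *Cd36* lay at -1.002 in WT and -2.03 in AS.

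To compare levels between genes, CPM were divided by the length in kb of the principal transcript of each gene (823 to 4115 bases). On this scale *Lpl* was highest in WT-dim (226.5 ± 37.6 CPM per kb, SD, n = 3) and in WT-bright (692 ± 178). *Gpihbp1* was under it in WT-bright (276 ± 122) and above it in AS-bright (481 ± 89.1 against 391 ± 27.1), where the libraries of the 2 genes overlapped. The number of *Lpl* per *Gpihbp1* transcript on this scale was 12.4, 41.3 and 38.5 in WT-dim and 46.2, 30.5 and 3.22 in AS-dim. It was 1.18, 4.25 and 3.50 in WT-bright, and 0.754, 0.963 and 0.763 in AS-bright, each AS-bright library being under each WT-bright library. After these 2 genes, the order in WT-bright was *Fabp4* (142 ± 27.0), *Mgll* (61.4 ± 12.2), *Fabp5* (32.8 ± 5.36), *Fabp3* (21.9 ± 15.2) and *Cd36* (10.9 ± 2.66), of which *Fabp5* with *Fabp3* and *Fabp3* with *Cd36* overlapped. In AS-bright *Fabp4* (226 ± 34.5), *Mgll* (106 ± 22.1) and *Fabp5* (96.6 ± 19.6) came next, the last 2 overlapping, and then *Cd36* (5.41 ± 2.95) and *Fabp3* (2.13 ± 2.59), which overlapped too. In WT-dim *Fabp3* (53.5 ± 30.3), *Fabp4* (28.4 ± 5.54), *Fabp5* (25.7 ± 4.62), *Cd36* (22.5 ± 3.44), *Gpihbp1* (10.6 ± 9.48) and *Mgll* (8.27 ± 2.95) followed *Lpl*, and each overlapped the next. In AS-dim *Fabp5* (46.8 ± 13.7) and *Lpl* (44.2 ± 8.25) were highest and overlapped, then came *Cd36* (22.1 ± 4.42) and *Fabp4* (21.5 ± 4.40), which overlapped, and *Fabp3*, *Gpihbp1* and *Mgll* (1.39 ± 0.37) were lowest. The order depends on the length taken: over all annotated exons *Cd36* led in AS-dim, and in the authors' RPKM *Lpl* led in all 4 groups.

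The 3 FABP genes differed in which of them made up most of their summed level. In CPM per kb of principal transcript, *Fabp3* was 63.9%, 42.4% and 35.4% of their sum in WT-dim and 2.26%, 22.0% and 1.47% in AS-dim. *Fabp5* was 15.2%, 25.1% and 36.7% in WT-dim and 63.0%, 48.1% and 75.9% in AS-dim, so that on this scale it had the highest share in all 3 AS-dim libraries. In bright *Fabp4* had the highest share in both genotypes, with 72.5% ± 4.202 in WT and 69.4% ± 5.44 in AS (SD, n = 3). There *Fabp5* was 16.9% ± 2.01 in WT and 29.9% ± 6.23 in AS, and *Fabp3* 10.6% ± 6.15 in WT and 0.650% ± 0.807 in AS. The shares of *Fabp5* did not overlap between AS and WT in either subpopulation, while those of *Fabp4* overlapped in both. The shares depend on the length taken, here all annotated exons or the authors' RPKM. In WT-bright *Fabp4* was then 49.7% ± 9.88 over all exons and 47.8% ± 10.3 in RPKM, and *Fabp3* 34.2% ± 13.9 and 37.2% ± 14.3. *Fabp3* had the highest share in WT-bright replicate 1 (50.2% and 53.7%), AS-dim replicate 2 (53.3% and 57.1%) and all 3 WT-dim libraries on both of these scales. The shares of *Fabp5* did not overlap between AS and WT on either scale, and here those of *Fabp4* did not overlap either, being higher in AS in both subpopulations.

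**Figure D5:**
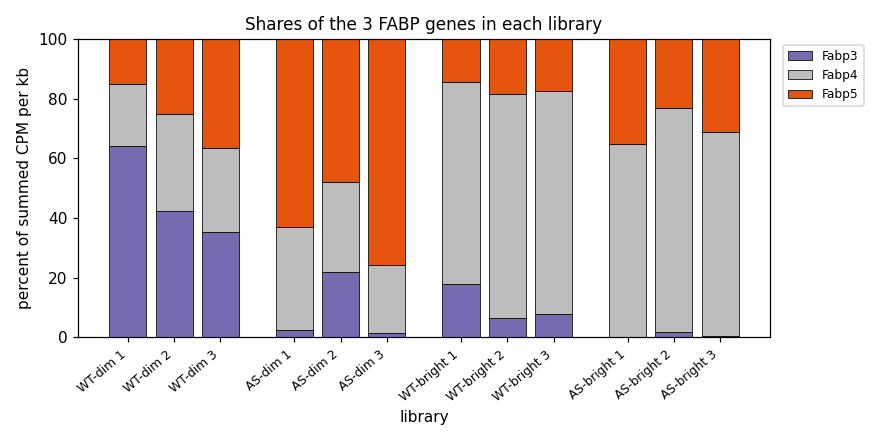
Share of *Fabp3*, *Fabp4* and *Fabp5* in their summed level (CPM per kb of principal transcript, in percent) in each of the 12 libraries. On this scale *Fabp4* had the highest share in the 6 bright libraries and *Fabp5* in the 3 AS-dim libraries; over all annotated exons *Fabp3* had it in WT-bright replicate 1 and AS-dim replicate 2.

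Marker genes of other cells moved with several of these differences. In dim, 9 of 13 endothelial markers tested fell in AS and 0 rose (median log2 fold change -2.22), beside *Lpl* and *Mgll*. In bright, 0 of 14 passed in AS over WT (median 0.39; 6 had an unadjusted p under 0.05, and 2 passed with DESeq2). Per 1000 CPM of summed endothelial markers (a ratio chosen after the values were seen) *Mgll* was at 27.8 ± 2.36 CPM in WT-dim, 19.3 ± 7.98 in AS-dim, 16.8 ± 3.50 in WT-bright and 23.1 ± 2.72 in AS-bright (SD, n = 3). *Lpl* on the same ratio was at 859.5 ± 198 in WT-dim and 653 ± 233 in AS-dim, which overlapped, and at 197 ± 13.5 in WT-bright and 91.2 ± 2.84 in AS-bright, which did not. For the other 5 genes the group means of this ratio follow in the order WT-dim, AS-dim, WT-bright and AS-bright. They were 7.67, 11.8, 17.5 and 22.4 for *Gpihbp1* and 38.5, 16.2, 1.43 and 0.104 for *Fabp3*. For *Fabp4* they were 23.1, 69.6, 9.29 and 11.6, for *Fabp5* 24.7, 162, 2.34 and 5.42, and for *Cd36* 71.2, 270, 2.63 and 1.045. The part of the endothelial markers in these differences was not tested.

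The levels of *Fabp3* and of kidney tubule markers were both lower in AS-dim than in WT-dim. The 12 proximal tubule markers summed to 8433, 1843 and 1777 CPM in WT-dim and to 44.6, 523 and 18.4 CPM in AS-dim. In bright they summed to 3553, 565 and 846 CPM in WT and to 89.6, 775 and 63.5 CPM in AS. As for *Fabp3*, replicate 1 was the highest WT library and replicate 2 the highest AS library in both subpopulations. In dim 5 of the 12 fell in AS, with a median of -4.25, and in bright 0 of 12 passed (median -2.59; 9 had an unadjusted p under 0.05, and 0 passed with DESeq2). The markers of the loop, distal tubule and collecting duct, of which 4 of 5 tested fell in AS-dim, summed to 664.5 to 1626 CPM in WT-dim and 40.8 to 255 CPM in AS-dim (7 of 8 listed), and 377 to 521 CPM in WT-bright and 23.9 to 219 CPM in AS-bright (8 of 8). Per 1000 CPM of summed proximal tubule markers, a ratio also chosen after the values were seen, *Fabp3* was at 8.53, 19.8 and 13.4 CPM in WT-dim and at 31.7, 23.5 and 52.2 CPM in AS-dim, so that on this ratio every AS-dim library was above every WT-dim library. In bright the groups overlapped on this ratio, with 9.01, 14.4 and 16.3 for the WT libraries and 1.63, 5.39 and 14.9 for the AS libraries. No listed marker of either tubule list was at 0 in a whole group. The part of tubule RNA in the *Fabp3* difference was not tested.

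Macrophage markers, like *Cd36*, were higher in dim than in bright. Between bright and dim 8 of 10 macrophage markers tested were lower in bright in WT and 8 of 10 in AS, where 1 and 2 were higher. Per 1000 CPM of summed macrophage markers, a ratio also chosen after the values were seen, *Cd36* was at 13.1 ± 4.60 CPM in WT-dim and 6.82 ± 1.56 in AS-dim. On the same ratio it was at 144 ± 42.5 in WT-bright and 50.2 ± 34.1 in AS-bright (SD, n = 3). The marker sums fell from dim to bright by more than *Cd36* did, with 10 of the 12 markers listed for bright. The direction of this ratio was thus set by values already given. In dim 4 of 12 macrophage markers rose in AS while *Cd36* was at 75.2 ± 15.03 CPM in AS and 76.6 ± 11.7 CPM in WT. In bright, where *Fabp5* was higher in AS, the summed macrophage markers were also higher in every AS library than in every WT library (387 ± 50.5 against 260 ± 15.6 CPM), while 0 of 7 tested passed (median 0.49; 3 had an unadjusted p under 0.05, and 0 passed with DESeq2). Podocyte markers (8 of 8 listed) were at 636 to 1269 CPM in WT-dim, 552 to 572.5 CPM in AS-dim, 986 to 1227 CPM in WT-bright and 1382 to 1544 CPM in AS-bright. In bright their sum, too, was higher in every AS library than in every WT library. There 0 of 8 passed (median 0.996), 6 had an unadjusted p under 0.05 and 3 passed with DESeq2. Mesangial and mural markers (8 of 10 listed for dim, 10 of 10 for bright) were at 150 to 218.5 CPM in WT-dim, 62.7 to 111.5 CPM in AS-dim, 462 to 967 CPM in WT-bright and 484 to 889 CPM in AS-bright. The part of these cells in the levels of the 7 genes was not tested.

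Around the members, 68 further genes of fatty acid handling were looked up in 5 lists, and 44 are listed for dim and 43 for bright. In AS over WT, 5 of 39 tested fell and 0 rose in dim, where 6.42% of all genes were lower, and 11 of 39 passed with DESeq2, 10 lower and 1 higher. Without AS-dim replicate 1, 0 of all genes passed in dim by edgeR's quasi-likelihood test (2972 at an unadjusted p under 0.05), and without AS-dim replicate 3 only 1 did. In bright 0 of 40 passed by edgeR's quasi-likelihood test, where 8 had an unadjusted p under 0.05 and 2 passed with DESeq2. The median of the lists together was -0.42 in dim and -0.05 in bright.

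Of the capillary lipolysis genes (12 named, 5 tested in each fit), *Vldlr*, a receptor that binds triglyceride-rich lipoproteins, fell in AS-dim from 18.6 ± 16.9 to 1.20 ± 1.62 CPM (log2 fold change -4.05, standard error 1.0024, adjusted p = 0.0456). The angiopoietin-like inhibitor of lipoprotein lipase, *Angptl4*, was low everywhere, and was higher in bright than in dim in AS mice (2.41, adjusted p = 0.00108), as was *Vldlr* (2.29, adjusted p = 0.0128). *Scarb1*, the HDL receptor, was higher in bright in both genotypes, by 0.89 in WT (adjusted p = 0.0301) and 0.83 in AS (adjusted p = 0.00547).

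Of the membrane transport and acyl-CoA activation genes (15 named), 2 of 11 fell in AS-dim. *Slc27a2*, a fatty acid transporter and acyl-CoA synthetase of the proximal tubule, went from 163 ± 131 to 5.68 ± 9.01 CPM (-4.92, standard error 1.09, adjusted p = 0.0341), and *Cav1*, the coat protein of caveolae, from 27.6 ± 15.5 to 2.70 ± 1.17 CPM (-3.38, standard error 0.62, adjusted p = 0.0230). The effect of AS on *Cav1* differed between bright and dim (3.98, standard error 0.60, adjusted p = 0.00432), as that of no other gene of the 5 lists did in this fit, where 3.77% of all genes passed. With the mouse as a replicate block 3 genes of the lists passed, *Slc27a2* (3.25, adjusted p = 0.00813) and *Vldlr* (3.20, adjusted p = 0.0393) besides *Cav1*, and with DESeq2 3 did. With that block *Slc27a2* also passed between subpopulations, lower in bright in WT (-1.73, adjusted p = 0.00276) and higher in AS (1.53, adjusted p = 0.0146). Between subpopulations, *Cav1* (2.68 in WT, 6.61 in AS), the VEGF-B receptor *Flt1* (3.27 and 4.27), which is also 1 of the 14 endothelial markers, its co-receptor *Nrp1* (3.66 and 4.47) and the transporter *Slc27a3* (3.03 and 3.30) were higher in bright in both genotypes, with adjusted p from 6.35e-08 to 0.0142. *Slc27a1* was lower in AS-bright than in AS-dim (-1.25, adjusted p = 0.0179).

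Of 12 other genes of the FABP family and its relatives, 3 are listed for dim and 2 for bright. In AS mice *Crabp2* (2.70, adjusted p = 0.0156), which carries retinoic acid, was higher in bright than in dim, at 1.22 ± 0.450 CPM against 0.192 ± 0.267 CPM (SD, n = 3).

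The triglyceride storage and breakdown genes include enzymes of synthesis and lipases (21 named, 15 tested). In WT 5 of 15 were lower in bright, where 11.5% of all genes were, and 0 were higher. In AS 9 of 15 were lower and 4 higher, where 26.5% and 28.6% of all genes were. In the same comparisons 8 of 10 macrophage markers were lower in bright in each genotype (median -6.38 in WT and -3.99 in AS), as were 5 of 5 lymphocyte markers tested (-8.03 and -7.24); their part in the values of this list was not tested. *Dgat1*, which makes the last step of triglyceride synthesis, was at -2.82 in WT (adjusted p = 0.000195) and -2.89 in AS (adjusted p = 1.03e-06). *Gpat3* (-3.35 and -4.42), the lipase inhibitor *G0s2* (-4.67 and -6.54) and the lipid droplet coat gene *Plin2* (-1.85 and -2.79) were lower too, with adjusted p from 7.19e-07 to 0.00663. In AS, the lipase *Pnpla2* (0.65), its co-activator *Abhd5* (1.35), *Abhd6* (2.41), which like *Mgll* hydrolyses monoacylglycerol, and *Gpat4* (0.78) were higher in bright (adjusted p from 0.000782 to 0.0279). *Abhd6* was also the 1 gene of the list that fell in AS-dim, from 11.7 ± 4.32 to 2.35 ± 1.46 CPM (-2.31, standard error 0.54, adjusted p = 0.0403).

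Of the 8 transcriptional regulators besides *Meox2*, 7 are listed for dim and 8 for bright, and 0 of 7 passed in AS over WT in either subpopulation (2 in dim and 0 in bright at an unadjusted p under 0.05, and 1 and 0 with DESeq2). *Meox1*, the paralog of *Meox2*, was higher in bright in WT (54.6 ± 10.3 against 3.95 ± 2.77 CPM, log2 fold change 3.84, adjusted p = 0.000964) and in AS (60.0 ± 8.61 against 0.715 ± 0.458 CPM, 6.39, adjusted p = 2.60e-07). *Rxra*, a partner of the PPARs, was higher in AS-bright than in AS-dim (1.39, adjusted p = 0.000311), and *Rbpj*, the effector of Notch signalling, was lower (-1.44, adjusted p = 5.11e-05). *Tcf15* is listed for bright only, at 1.78 CPM in WT and 1.34 CPM in AS (log2 fold change -0.45, adjusted p = 0.695).

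Over the 12 libraries the genes whose log2 CPM followed each member most closely were found among 11833 genes; these libraries share the 4 groups, so that Pearson's r is a description here. *Mgll* was most like *Plpp1*, *Tek* and *Fermt2* (r = 0.994, 0.993 and 0.992), and *Gpihbp1* most like *Scarf1*, *Astn1* and *P2ry1* (0.986 to 0.981). *Fabp4* was most like *Fyttd1*, *Gimap4* and *Sh3bp5* (0.987 to 0.984) and *Lpl* most like *Cachd1*, *Neo1* and *Pde9a* (0.984 to 0.974). *Fabp3* was most like *Ptprf*, *Gldc* and *Slc1a1* (0.987 to 0.969). The lowest likeness was that of *Fabp5*, with *Cfl1*, *Gm14328* and *Cd40* (0.964 to 0.944), and of *Cd36*, with *Rbm47*, *Gm43178* and *Gm43305* (0.942 to 0.933).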

How the data were processed

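The authors trimmed the paired reads (cutadapt and Trimmomatic, with FastQC 0.11.5, per the submitters' processing notes), aligned them with STAR 2.6.0c to GRCm38.p5 with Gencode M16 and deposited STAR's count per gene, not normalized, in 1 table for each subpopulation. The deposited RPKM were computed by the authors per kb of a gene length that sums the exons of all transcripts for 90.6% of 19545 genes, so they are low for genes with many transcripts, and were used as an alternative scale of level only. The tables also hold the authors' own edgeR fold changes and p-values, which were not used. The 92 ERCC spike-ins (0.0286% to 0.282% of counts) were left out. The rule by which the authors filtered the tables is not given in the sources used here.

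Counts were tested in R 4.3.3 with edgeR 4.0.16: TMM normalization, filterByExpr, the version 4 quasi-likelihood test and Benjamini-Hochberg adjustment over all genes, with a threshold of 0.05. AS over WT used the 6 libraries of a table, bright over dim the 6 of a genotype and the interaction all 12, on genes in both tables. The tests were checked on simulated counts, where the quasi-likelihood test gave a larger share of false calls than the threshold in every comparison but the interaction, and DESeq2 a still larger share in every comparison. The standard error is the log2 fold change over the root of F. Replicates are separate mice, and the dim and bright libraries of a mouse share its identifier in the labels. Deviations from group means correlated by 0.102 to 0.274 within the WT mice and 0.0796 to 0.385 within the AS mice. Alternatives were RLE, library sizes alone, DESeq2 1.42.0, a likelihood ratio test, no filter, a replicate block, all 12 libraries together, each replicate left out and, added after seeing the data, edgeR's version 3 fit, other gene lengths for the FABP shares, and the block and DESeq2 for the other fatty acid genes.

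The members and lists were chosen with earlier results of these data known. All 8 members are named; of the other lists, those that passed are named, up to the 4 with the smallest adjusted p in each direction. The values of 1 gene of these lists are not reported here. The precision of each value is set by 3 libraries a group.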

Additional observations from a re-analysis of the deposited data

Results flagged for a closer look

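*Mgll* and *Lpl* were singled out because the effect of AS differed between the subpopulations in the fit of all 12 libraries. The log2 fold change of AS over WT in bright minus that in dim was 3.36 for *Mgll*, whose AS libraries lay under WT in dim and above WT in bright (all 3 against all 3 in each). It was 1.53 for *Lpl*, which lay under WT in both subpopulations. The selection of these genes used the same counts, so that the values are a description. *Mgll* passed the threshold in 19 of 19 alternatives and *Lpl* in 17 of 19, the exceptions being the fits without AS-dim replicate 3 and without AS-bright replicate 1.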

How the results depend on the processing

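Of 511 values of the 7 genes under the alternatives, 467 kept their direction and side of the threshold. Directions turned for *Cd36* in AS over WT in dim, to 0.023 with library sizes alone, 0.083 without WT-dim replicate 1 and 0.032 without AS-dim replicate 2 (range with a replicate left out, -0.25 to 0.083). Its ratio of mean RPKM, which is not one of the 511 values, was 0.053. *Fabp3* turned to 0.57 in bright over dim in AS without AS-dim replicate 2 (range -3.14 to 0.57), and its interaction (range -1.97 to 1.73) to 0.01 and 0.20 without WT-dim replicates 2 and 3, 0.62 without WT-bright replicate 1, 1.73 without AS-dim replicate 2, and 0.42 and 0.19 without AS-bright replicates 1 and 3. None of these values had passed.

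The number of genes past the threshold in AS over WT depended on the test. In dim, 1263 passed, against 2213 with DESeq2, 1946 with the likelihood ratio test, 2106 with all 12 libraries in 1 fit, 582 with the version 3 fit, 494 with a replicate block and 0 to 1825 with a replicate left out. In bright, 65 passed, against 1117 with DESeq2, 827 with the likelihood ratio test, 139 with all 12 libraries, 39 without a filter, 16 with the block, 0 with the version 3 fit (2906 at an unadjusted p under 0.05) and 0 to 281 with a replicate left out. Of the 7 genes, 1 passed in bright in the version 4 fit, 2 with DESeq2, 3 with the likelihood ratio test, 0 with the version 3 fit or the block, and 0 to 3 with a replicate left out; in dim 0 to 3 did. The interaction gave 569 genes, 1186 with DESeq2, 1114 with the likelihood ratio test, 877 with the block and 252 to 857 with a replicate left out (1 to 2 of the 7 genes). Bright over dim gave 2534 to 3435 genes in WT and 6651 to 7490 in AS with a replicate left out, and 4 to 5 and 6 of the 7. The cause of these changes was not tested.

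For AS over WT the replicate number marks different mice and pairs nothing, and with it as a replicate block 2 of the 39 other fatty acid genes passed in dim in place of 5, and *Fabp3* (-3.61) did not. Their same-numbered libraries correlated by -0.151 to 0.124. For bright over dim, where it marks the mouse, the replicate block changed no call of the 7 genes but that of *Fabp3*, and 15 of the other fatty acid genes passed in WT in place of 11 and 28 in AS in place of 26.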
